A study of Mus musculus with 44 samples.

Results

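Zcchc2, Epm2aip1, Purg, Dph7, Ppig and Kbtbd7 are 6 mouse genes whose messenger RNA carried called N6-methyladenosine (m6A) peaks in control liver and none after exposure to Aroclor1260. They were chosen by that absence of peaks and by their control fold enrichment, with earlier results of these data known, so both are described and not tested. Peaks were taken by the gene's Ensembl identifier or by a span inside its mm10 span, and both ways gave the same peaks. The 6 genes held 83 of 17573 peaks in 8 lists and made up 6 of the 1420 loci called in at least 1 list. All coordinates are 1-based on mm10, and all 6 genes lie on the plus strand. Livers came from male C57Bl/6J mice fed a diet in which fat supplied 42% of the calories. The labels' protocol gives a single oral exposure at week 2 of 12, whereas the series text speaks of treatment for 12 weeks, so the length of exposure is not settled here. The groups received Aroclor1260, PCB126, both compounds together (the combination) or vehicle (control), and neither dose nor age is given in the labels used here. Aroclor1260 was sold as a blend of many heavily chlorinated biphenyls. PCB126 is one such compound with dioxin-like action through the aryl hydrocarbon receptor. Each group had 5 m6A immunoprecipitates, 5 input libraries and 1 immunoprecipitate of pooled RNA with control IgG.

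The modification m6A is written on nascent messenger RNA by a methyltransferase complex, removed by demethylases and bound by reader proteins that steer splicing, translation and decay. In this assay RNA fragments pulled down by an m6A antibody are compared with a reference, so a peak depends on the mark and on how much of the transcript was sequenced. The 6 genes were not chosen for a common pathway. Epm2aip1 binds laforin, the glycogen phosphatase lost in Lafora disease, and has been tied to glycogen synthase in mouse liver. Dph7 acts late in the synthesis of diphthamide, a modified histidine of elongation factor Eef2. Ppig is a nuclear cyclophilin with a domain rich in arginine and serine, and Purg belongs to the Pur family of single-stranded nucleic acid binding proteins. Kbtbd7 is a BTB-kelch adaptor of cullin 3 ubiquitin ligases, known mainly from human cells, and Zcchc2 encodes a protein with a CCHC zinc finger.

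Promoters that hold GCGTG, the core of the element bound by that receptor, are shown as context for the PCB126 values. RefSeq windows of GRCm38.p6, each 300 bases long around a start that can differ from the start of the gene span, matched 5 of the 6 genes, all but Purg. The window of Ppig, from 69722838 to 69723137, lies wholly inside its span, and that of Dph7 begins 1 base into it. GCGTG was searched on both strands and was found in 2 of the 5, against 32.4% of all 32851 windows. Zcchc2 held 2 matches and Kbtbd7 held 1, in capitals below, where CACGC is a match on the opposite strand. The windows are chr1:105990156-105990455 for Zcchc2 and chr14:79426261-79426560 for Kbtbd7, both on the plus strand.
Zcchc2: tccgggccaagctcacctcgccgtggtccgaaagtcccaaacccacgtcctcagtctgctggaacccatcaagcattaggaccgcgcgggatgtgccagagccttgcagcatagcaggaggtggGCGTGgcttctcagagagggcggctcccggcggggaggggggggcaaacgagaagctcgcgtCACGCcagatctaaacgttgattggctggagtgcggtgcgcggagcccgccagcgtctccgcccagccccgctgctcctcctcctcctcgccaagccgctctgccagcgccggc
Kbtbd7: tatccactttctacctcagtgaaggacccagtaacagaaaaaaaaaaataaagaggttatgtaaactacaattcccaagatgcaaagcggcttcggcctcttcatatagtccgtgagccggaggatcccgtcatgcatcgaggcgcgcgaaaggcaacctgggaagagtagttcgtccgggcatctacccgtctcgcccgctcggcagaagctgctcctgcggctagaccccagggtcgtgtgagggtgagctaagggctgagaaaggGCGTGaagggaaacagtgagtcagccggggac
The 5 windows had 51.3 to 72.3% G and C, against a median of 52.7% over all windows. They held 12 to 35 CG pairs, against a median of 7. A match is a string of letters only, and no peak of these genes lay inside these windows.

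Each list holds 1 set of peaks for a whole treatment, so there is no value per animal, no replicate error and no test across mice, and the sequencing depth is unknown. Fold enrichment below is the authors' linear ratio of m6A over the reference for a single peak, and FDR is the false discovery rate their caller gave it. Against input the lists held 506 peaks after Aroclor1260, 2178 after PCB126, 2284 after the combination and 620 in control. Against IgG they held 2082, 4129, 3683 and 2091 in the same order. Of the hepatocyte markers, 7 of 9 had a peak in at least 1 list, while Alb and Serpina1a had none in any. The markers of other liver cells with a peak were Cd5l for Kupffer cells, Bmp2 for endothelium and Dcn for stellate cells, among 25 listed. A peak shows neither how many cells of a type were present nor how much RNA each held.

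After Aroclor1260 none of the 6 genes had a peak against input or against IgG, whereas in control liver all 6 had peaks against both. Of all 255 loci with a control peak against input, 35.7% had none after Aroclor1260, and of 597 against IgG, 29.8%. With both references required, 25 of 225 loci (11.1%) had no peak after Aroclor1260, and the 6 genes are among these by choice. Ranked by control fold against input, they stood at places 4, 5, 6, 9, 10 and 12 of the 25. Kbtbd7 at 4.6 was the lowest of them, and the next loci were an identifier without a RefSeq name at 3.8 and Mtmr10 at 3.71. Above Kbtbd7 stood Tnfsf10, Lifr, Onecut2, Zbtb10 and 2 further unnamed identifiers. The Aroclor1260 lists held peaks of the size these genes had in control: 79 of 506 peaks against input and 384 of 2082 against IgG had a fold of at least 4.6, the lowest of the 6 genes. Fewer had an FDR above the largest best FDR of the 6 genes in control. Against input, 20 of 506 (3.95%) lay above 0.0049, and against IgG, 125 of 2082 (6.0%) lay above 0.0011. Few control peaks lay above these limits either. Ordered from the smallest FDR, the Kbtbd7 peak at the input limit stood at place 600 of 620 control peaks. The Dph7 peak at the IgG limit stood at place 1947 of 2091.

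**Figure D1:**
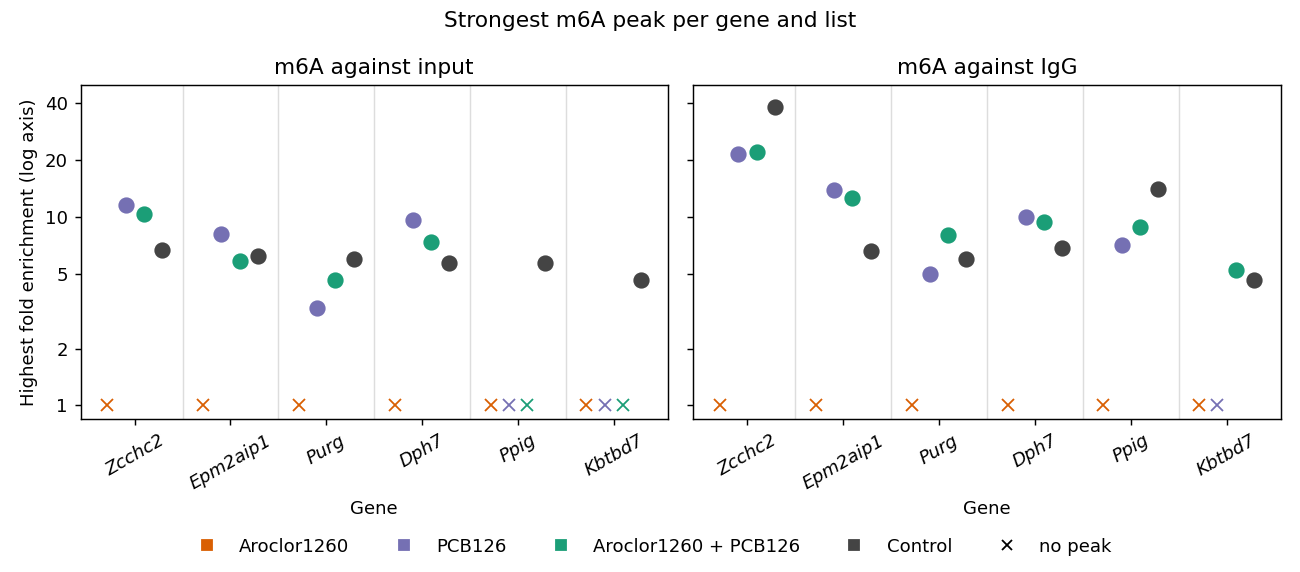
Highest fold enrichment of each gene (log axis) in the lists called against input (left) and IgG (right), with 1 value per list and no error bars because each list pools a treatment. Crosses at the bottom mark lists without a peak, and all 12 Aroclor1260 positions are crosses.

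Zcchc2 (ENSMUSG00000038866, chr1:105990390-106034077) had the highest fold of the 6 genes in each list with a peak. Its leading peak lay about 40 kb into the gene, near the end of the span, on chromosome 1. Against input, the fold was 11.6 from 106030737 to 106031285 after PCB126, 10.3 from 106030090 to 106031186 after the combination and 6.65 from 106030438 to 106031385 in control. Against IgG, the folds were 21.6 after PCB126, 22.0 after the combination and 38.0 in control, where the peak ranked 3 among 2091. The order of the treatments thus differed between the references. A further peak near the start of the gene, beginning at 105991103 in 5 lists and at 105991153 in control against IgG, had folds of 3.42 after PCB126, 2.5 after the combination and 2.78 in control against input. Against IgG, that peak had folds of 8.0 after PCB126, 6.4 after the combination and 5.0 in control. After PCB126, peaks also ran across splice junctions downstream of it: 1 peak with 4 exonic blocks, from 105991601 to 106006068, had a fold of 2.2 against input. In the PCB126 list against IgG, 1 peak with 2 blocks ran from 105991601 to 106000974 with a fold of 3.4, and another with 3 blocks ran from 106004130 to 106011733 with a fold of 4.4. The combination and control lists had no junction-spanning peak in that part of the gene, though control against IgG had 1 upstream of the leading peak, with a fold of 1.6.

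Epm2aip1 (ENSMUSG00000046785, chr9:111271845-111279093), the laforin partner, had 24 peaks, of which 21 overlapped another peak of the same identifier in the same list. Only 0.973% of all peaks in the 8 lists did so, and merging the overlaps left 2 regions in every list with a peak except PCB126 against IgG, which had 3. The first region lay on chromosome 9 from 111272379 to 111273028, and the bases from 111272579 to 111272879 were common to all 11 of its peaks. Its highest fold against input was 8.12 after PCB126, 3.33 after the combination and 3.0 in control. The second region, from 111273095 to 111273794, reached 6.6 after PCB126, 5.83 after the combination and 6.2 in control. In the first region the PCB126 fold was the highest of the 3, while in the second all 3 values lay between 5.83 and 6.6. Against IgG, the first region reached 13.8, 12.6 and 6.6 in the same order and the second 7.8, 4.4 and 6.6. The third region of the PCB126 list, from 111273878 to 111274028, had a fold of 4.0.

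Purg (ENSMUSG00000049184, chr8:33385619-33417472) had 1 peak region shared by 6 lists, on chromosome 8 from 33386473 to 33386818, within the first 1.2 kb of its span. The 100 bases from 33386621 to 33386720 were common to all 6 of its peaks, and in control they were the whole peak with either reference. Each fold is that of a whole peak, and the peaks differed in width. Against input, it was 3.29 over 297 bases after PCB126, 4.62 over 248 after the combination and 6.0 over 100 in control. Against IgG, it was 5.0 over 297 bases after PCB126, 8.0 over 149 after the combination and 6.0 over 100 in control. A weaker control peak from 33386868 to 33387016, with folds of 2.6 against input and 2.8 against IgG, was in no exposed list.

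Dph7 (ENSMUSG00000026975, chr2:24962171-24972186), the diphthamide gene, had exactly 1 peak in each of 6 lists, on chromosome 2, and all of them ended at 24971868 near the end of the gene. The peak began at 24971621 after PCB126 and after the combination with either reference. In control it began at 24971769 against input and at 24971670 against IgG, so 100 bases were common to all. Against input, the fold was 9.6 after PCB126, 7.33 after the combination and 5.67 in control. Against IgG, it was 10 after PCB126, 9.4 after the combination and 6.8 in control. The order of the 3 treatments by fold was therefore the same with both references, although the values come from separate lists and have no error. The FDR did not follow that order. Against input, it was 0.00141 after PCB126, 0.000191 after the combination and 0.00339 in control. Against IgG, it was 0.00955 after PCB126, 0.000141 after the combination and 0.0011 in control.

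Ppig (ENSMUSG00000042133, chr2:69722753-69754059), the nuclear cyclophilin, had peaks against input in control alone, at 4 places on chromosome 2. The strongest, from 69749379 to 69749528, had a fold of 5.67 and the next, from 69749628 to 69749727, had 4.14. The remaining pair, at 69741546 to 69741646 and 69749927 to 69750076, had folds of 1.23 and 1.26. Against IgG, the same stretches carried 3 peaks after PCB126, 4 after the combination and 4 in control. Their highest fold was 7.1 after PCB126, 8.8 after the combination and 14 in control, and the peak that led differed between the combination (69749827 to 69749976) and control (69749379 to 69749528). The first stretch crossed a splice junction in all 3 IgG lists, with 2 blocks that reached to 69743764 after PCB126, 69743714 after the combination and 69743664 in control.

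Kbtbd7 (ENSMUSG00000043881, chr14:79426511-79431039), the cullin 3 adaptor, had a peak in the fewest lists of the 6 genes, 3 of 8. It had 1 control peak against input, on chromosome 14 from 79428301 to 79428749, with a fold of 4.6. Against IgG, it had no peak after PCB126, 3 peaks after the combination with folds of 3.0, 3.8 and 5.2, and 2 in control with folds of 2.0 and 4.6. The strongest peak ended at 79428749 in each of those 3 lists. Kbtbd7 was the only one of the 6 genes with no peak after PCB126 with either reference.

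**Figure D2:**
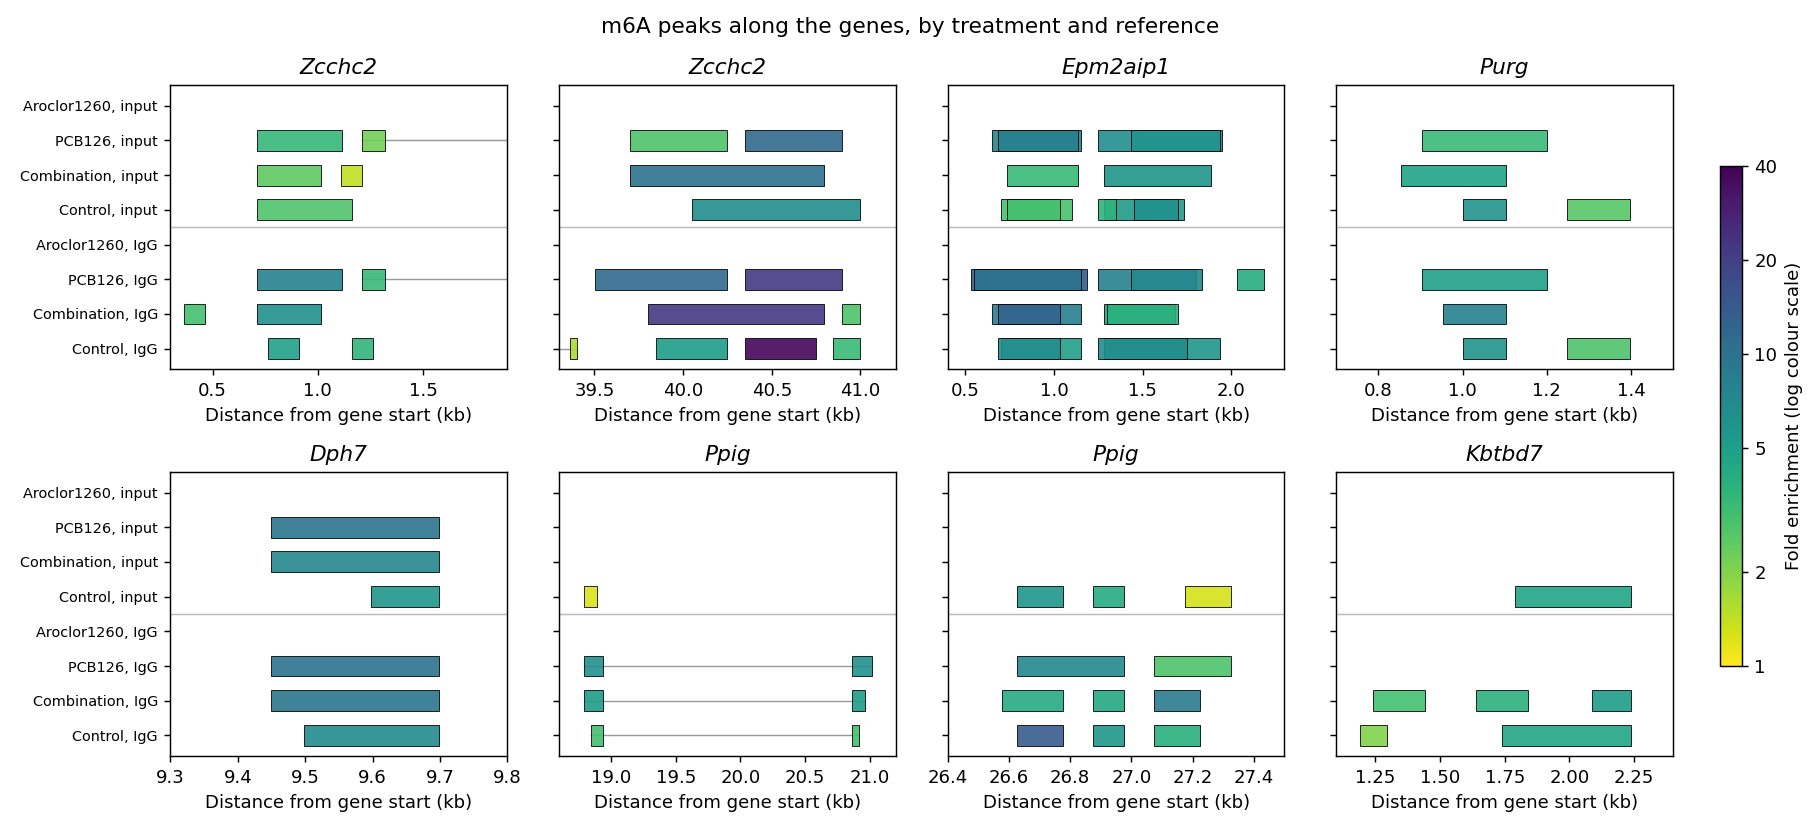
Peaks along the genes by distance from the gene's start (kb, linear axis), with 1 row per list, input above IgG, and colour giving the fold enrichment. Bars are exonic blocks, and of a spliced peak only the first and last block are drawn. Grey lines join these blocks and may run out of a panel, and the rows of Aroclor1260 are empty in all 8 panels. The part of Zcchc2 between its panels is not shown, which leaves out the PCB126 peak against IgG from 106004130 to 106011733.

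The same genes were then read in the other exposures, which did not define them. After PCB126, 2 of the 6 genes had no peak against input (Ppig and Kbtbd7) and 1 had none against IgG (Kbtbd7). Among all loci with a control peak, 7.06% had none after PCB126 against input, 11.4% against IgG and 0.889% against both. After the combination, the same 2 genes had no peak against input and none of the 6 lacked one against IgG, against 6.67% and 12.6% of all loci and 1.33% with both references. Zcchc2, Epm2aip1, Purg and Dph7 had at least 1 peak in every PCB126 and combination list. Those lists are longer than the control list against input. The input lists were then each cut to their 506 peaks of smallest FDR. Of the 6 genes, 3 kept a peak in control (Zcchc2, Epm2aip1 and Ppig), 0 in the PCB126 list and 0 in the combination list. Under that cut, 56.2% of all loci with a control peak had none in the PCB126 list and 66.4% none in the combination list. With the IgG lists cut to 2082 peaks in the same way, all 6 genes kept a peak in control. Only Epm2aip1 kept one in the PCB126 list, and the same held for the combination list. The share of all loci under this IgG cut is not given here, so no trait of the genes is read from these counts. With only 6 genes, 1 gene moves a share by more than the background in the uncut lists. Nothing particular to the genes is read from these shares, with or without the cut. The comparisons share the control lists.

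At the level of peaks, 0 of the 15 control peaks of these genes against input were overlapped by an Aroclor1260 peak, 9 by a PCB126 peak and 9 by a combination peak. The 9 were the same in both lists by gene: 2 of Zcchc2, 5 of Epm2aip1 (in 2 overlapping sets), 1 of Purg and 1 of Dph7. Of all 620 control peaks, Aroclor1260 peaks overlapped 50%, PCB126 peaks 88.2% and combination peaks 87.4%. Against IgG, Aroclor1260 peaks overlapped 0 of 19, PCB126 peaks 15 and combination peaks 16, where all 2091 control peaks gave 56.8%, 79.4% and 74.6%. The 0 of 15 and the 0 of 19 were fixed by the choice of genes without an Aroclor1260 peak. They are therefore not a result to set beside the shares of all control peaks. The peaks not overlapped after PCB126 against IgG were the pair of Kbtbd7, the weaker one of Purg and 1 of Zcchc2.

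The bases covered by peaks differed among the genes and treatments. None of the 6 could be compared after Aroclor1260, where coverage was wider than in control at 30.5% of all loci with a peak in both lists against input and 47% against IgG. Zcchc2 was covered over 1848 exonic bases after PCB126, 1497 after the combination and 1397 in control against input. Epm2aip1 was covered over 1201, 1002 and 885 bases, and Dph7 over 248, 248 and 100. Purg was covered over 297 bases after PCB126, 248 after the combination and 249 in control. All 4 genes with a PCB126 peak against input were thus covered more widely after PCB126 than in control, and 3 of the 4 after the combination. That was also true of 79.3% of all loci with a peak after PCB126 and in control, and of 79.8% for the combination. Against IgG, coverage was wider in 5 of 5 genes after PCB126 (76.7% of all loci) and in 3 of 6 after the combination (73.6%). Epm2aip1, Purg and Kbtbd7 were the genes covered less widely after the combination, with 919, 149 and 551 bases against 1151, 249 and 600 in control.

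**Figure D3:**
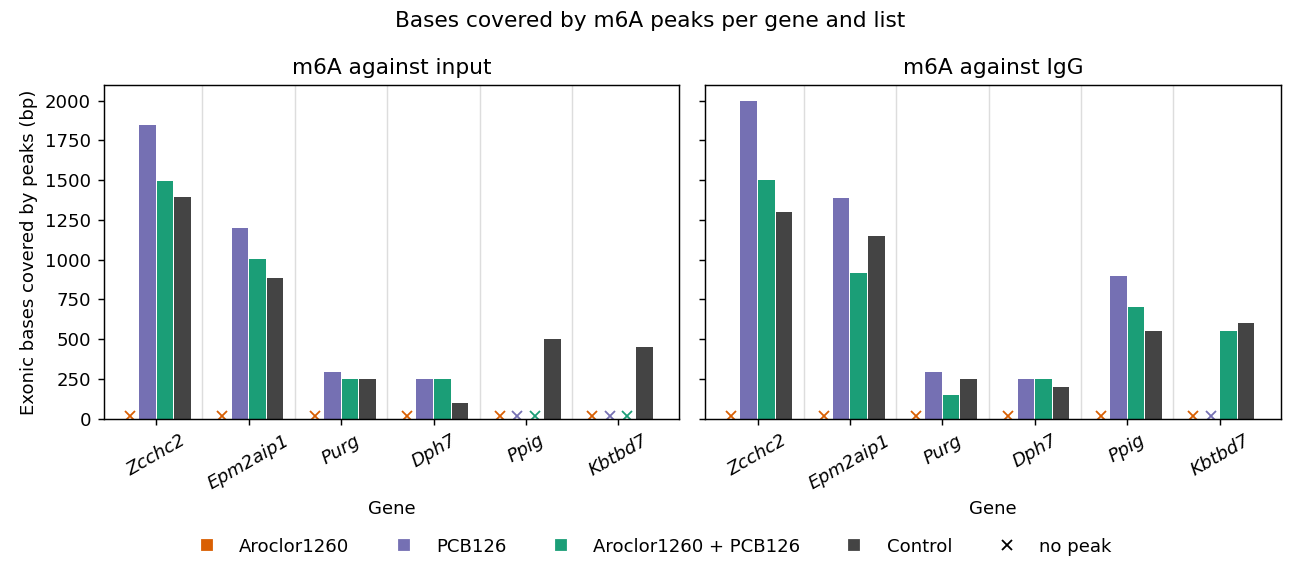
Exonic bases covered by the peaks of each gene (bp, linear axis from 0), against input (left) and IgG (right), with crosses for lists without a peak. Zcchc2 had the widest coverage, up to 1999 bases after PCB126 against IgG, and no gene had a covered base after Aroclor1260.

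In control the 6 genes stood higher among the loci by fold, a value on which they were chosen, than by FDR. In control against input, the best FDR of a gene was 3.31e-05 for Ppig, 5.25e-05 for Epm2aip1, 0.0001 for Zcchc2, 0.00162 for Purg, 0.00339 for Dph7 and 0.0049 for Kbtbd7. Among the 255 control loci ordered from the smallest best FDR, these genes stood at places 199, 208, 215, 244, 250 and 252. By highest fold they stood at places 70, 57, 48, 63, 70 and 101 in the same order of genes. The median highest fold was 5.83 in the 6 genes, 3.11 in all 91 loci without a peak after Aroclor1260 and 4.23 in the 164 loci that kept one. The value of the 6 genes follows in part from that choice. The median best FDR was 0.000861 in the 6 genes, 3.16e-06 in the 91 loci and 1.76e-07 in the 164. Of the 54 control loci with a best FDR within the range of the 6 genes, 53.7% had no peak after Aroclor1260, 13% had none after PCB126 and 11.1% none after the combination. That range was set after the values were seen, and it includes the 6 genes. The peaks of a gene often carried 1 shared p-value: 66 of the 83 had the same p-value as another peak of that gene in that list. The part of the FDR, or of the reads behind it, in the absence after Aroclor1260 was not tested.

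**Figure D4:**
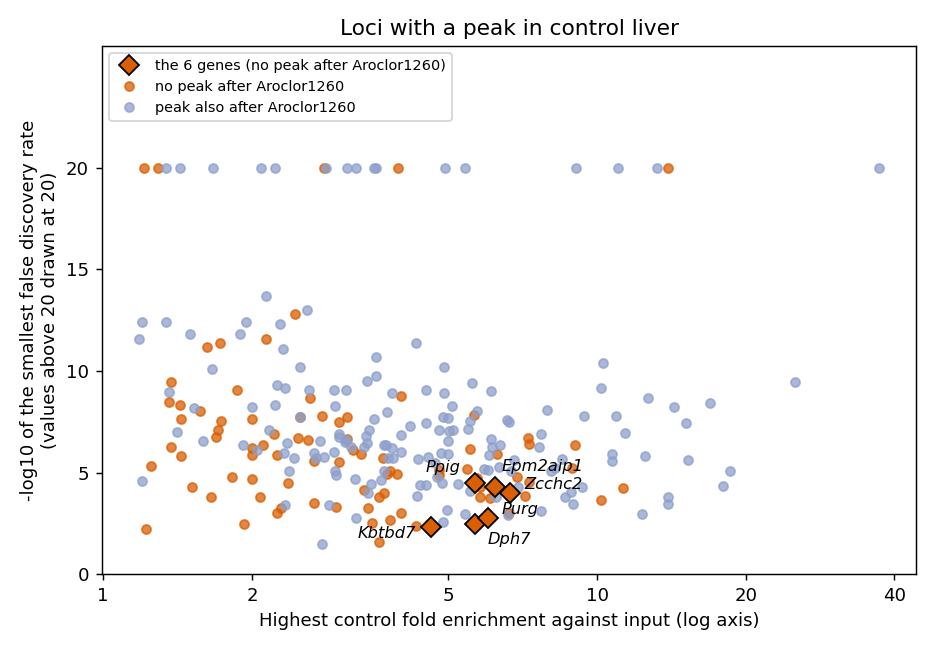
Each of the 255 loci with a control peak against input, by its highest fold (log axis) and the negative log10 of its smallest FDR, where values above 20 are drawn at 20. The 6 genes (diamonds) lie between folds of 4.6 and 6.65 and near the bottom of the FDR axis, among loci with a peak after Aroclor1260 and loci without one.

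In place, the peaks fell in separate parts of the genes. All peaks of Purg had their centre between 0.0307 and 0.0415 of the gene span, where 0 is the start and 1 the end, and those of Dph7 between 0.956 and 0.963. Epm2aip1 peaks lay between 0.117 and 0.291, Kbtbd7 peaks between 0.274 and 0.478 and Ppig peaks between 0.602 and 0.870. Zcchc2 peaks ranged from 0.00949 to 0.937, and those with the highest folds lay near the end of the gene. The median over the peaks of the 6 genes against input was 0.207 after PCB126, 0.129 after the combination and 0.217 in control, and Epm2aip1 alone gave 4, 2 and 5 of those peaks. Against IgG the medians were 0.291, 0.384 and 0.439, so the treatment with the lowest median differed between the references. Plus-strand peaks centred within a named gene's span had medians of 0.779, 0.796 and 0.773 against input. The gene table used here gives spans without exons, so the peaks were not assigned to coding sequence or untranslated regions. Peaks of the 6 genes had a median exonic width of 297 bases, and 7 of 83 (8.43%) had more than 1 block, against 200 bases and 29.9% over all peaks. All 83 lay on the plus strand, which held 95.2% of all peaks.

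Zcchc2, Epm2aip1, Purg and Dph7 shared 1 pattern of presence over the 8 lists, with a peak in all but the Aroclor1260 lists. Another 11 loci had that pattern in 8 of 8 lists, and the named ones with the highest control fold were Tnfsf10 (7.29), the ligand TRAIL, Onecut2 (5.79), a hepatic transcription factor, and Zbtb10 (5.44). A further 107 loci differed from it in 1 list. The patterns of Ppig and of Kbtbd7 were found at no other locus, and 18 and 8 loci differed from them in 1 list.

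Relatives of the 6 genes gave peaks in several treatments. Pura, the paralog of Purg, had peaks in all 8 lists, with a highest fold of 7.22 after Aroclor1260, 14.6 after PCB126, 5.83 after the combination and 6.7 in control against input. Ppp1r3b, which targets a phosphatase to liver glycogen and was listed with Epm2aip1, was also in all 8. Its highest fold against input was 7.53 after Aroclor1260, 10.5 after PCB126, 13.7 after the combination and 6.14 in control. Against IgG, it was 15.4, 43.6, 11.2 and 19.4, so the order of the groups differed between the references. Eef2, the protein that carries diphthamide, had 5 peaks in each IgG list, with highest folds of 2.2, 3.33, 5.0 and 2.13 in the same order of groups, and none against input. The BTB-kelch gene Klhl21 had no peak after Aroclor1260 against input but 1 with a fold of 3.2 against IgG. Its highest fold against input was 2.74 after PCB126, 3.43 after the combination and 1.29 in control. Among the cyclophilins, Ranbp2 had 9 peaks up to 6.4 after PCB126 against input and none after the combination. Against IgG, Ranbp2 had 10 peaks up to 10.2 after PCB126 and 11 up to 7.8 after the combination. It had none in control with either reference. Ppif had 2 PCB126 peaks and 1 combination peak against IgG. With the 6 genes themselves counted in, a peak in any list was held by 2 of 8 diphthamide genes, 3 of 17 cyclophilins and 2 of 3 Pur genes. The same was true of 1 of 11 Zcchc genes, 2 of 12 glycogen genes and 2 of 21 BTB-kelch and cullin genes. Of all 21900 protein-coding RefSeq genes, 5.86% had one, and each list holds at least 1 gene chosen for having peaks. After Aroclor1260 against IgG, Pura, Ppp1r3b, Eef2 and Klhl21 had a peak, and Ranbp2 and Ppif had none.

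Wrn, the helicase gene of Werner syndrome, lay 75 bases from Purg and had no peak in any of the 8 lists. Kbtbd6 lay 20795 bases from Kbtbd7 and also had none.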

How the data were processed

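Livers of 4 treatments were assayed by m6A immunoprecipitation, and 8 peak lists titled as MeTPeak output were analysed, 1 per treatment and reference (input or IgG). The submitters' processing notes name BWA 0.7.17, Trimmomatic, FastQC 0.10.1, bcl2fastq 2.20.0.422 and build mm10. Neither the caller's settings nor its annotation is stated there. Per the file headers, each peak has a fold enrichment (a linear ratio), a p-value and the log10 of its FDR. Ranking and filtering on these deposited values stayed inside each list.

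Coordinates were made 1-based. Identifiers took the name of the RefSeq GRCm38.p6 gene holding at least 80% of their exonic peak bases, or of the only protein-coding one, which named 1395 of 1512. Identifiers of the same name were joined. Peaks were shared when spans overlapped by 1 bp on the same strand. The steps were tested on simulated data and run in Python 3.11.15 with pandas 2.3.3. No test across animals was made. The 6 genes, related genes and markers were chosen with earlier results of these data known. Every gene chosen is named, as are related genes with a peak in any list and up to 3 other loci with an identical pattern of presence. Alternatives changed the reference, the assignment of peaks, the FDR or fold limit, the list length and the overlap.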

Additional observations from a re-analysis of the deposited data

How the results depend on the processing

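No paired analysis was possible because each list holds 1 set of peaks for a whole treatment, and no replicate could be left out. The absence of all 6 genes after Aroclor1260 was part of their choice with both references, so the IgG lists are no check on it. By identifier alone and by any overlap with the span it was the same. Stricter limits and shorter lists only remove peaks and could not change it. Presence of all 6 in control held at an FDR of at most 0.01. At a fold of at least 2 it could not fail, because the genes were chosen on control fold and the lowest was 4.6. Cutting each list to the 506 peaks of highest fold, a value on which the genes were chosen, left 3 of the 6 genes after PCB126, where Purg dropped out, 4 after the combination and 6 in control. Cutting to the 506 of smallest FDR left 0, 0 and 3. With IgG as reference, 15 control peaks of the genes were found after PCB126 and 16 after the combination, and a reciprocal overlap of 50% left 5 after the combination. The share of control loci without a peak after Aroclor1260 was 29.8% with IgG, 11.1% with both references and 53.7% at an FDR in the genes' range. After PCB126 it was 11.4%, 0.889% and 13% in the same order and, with equal numbers of peaks, 23.3% by fold and 56.2% by FDR. After the combination it was 12.6%, 1.33% and 11.1%, and 20.3% by fold and 66.4% by FDR. The median position of the genes' peaks moved to 0.384 after the combination and 0.439 in control with IgG. The FDR range, the FDR-ranked lists and the IgG positions were chosen after seeing the data, and the cause of these shifts was not tested. The other 43 alternative values stayed within 1.5 times the value given or, for shares, within its Wilson 95% interval, which covers counting error only. The depth of the lists is unknown.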

Other observations

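Fold values of these genes took few distinct steps against IgG. Of their 43 folds below 10 against IgG, 39 (90.7%) were whole multiples of 0.2 to the second decimal, against 61.7% of 11349 such folds over all peaks. Against input, 10 of 30 (33.3%) were, compared with 14.4% of 5338. The number of reads behind each fold is not in the lists used here, and no count was read from these steps.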
